A study of Mus musculus with 24 samples.

Results

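The regions described here were open in cultured epidermal stem cells (EpdSCs) without SOX9, kept a peak under mutant SOX9 proteins and in the cells labelled AFOS, and had no peak in any of the 3 arms with functional SOX9. They were chosen by their presence in 7 culture lists of ATAC-seq peaks, after peaks sharing at least 1 bp had been merged. A region was taken as a member when the noDOX, ΔHMG-SOX9, ΔTA-SOX9 and AFOS lists each had a peak in it and the WT-SOX9, SOX9+AFOS and SOX9+ARID1a lists had none. Of 97078 regions in the union of the 7 lists, 52401 had a noDOX peak, and 2160 of those (4.12%) were members. Because the culture lists chose the members, their culture scores are given as a description, with no test, whereas the skin lists, the DNA sequence and the genomic position played no part in the choice.

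ATAC-seq, in which a transposase cuts open chromatin, was carried out on 24 samples of male CD1 mice that carried K14rtTA, a DOX-dependent activator expressed from the keratin 14 promoter of basal keratinocytes. The 7 culture groups were keratinocytes from back skin. Cells with TRE-myc-Sox9 were left without DOX (noDOX) or given DOX at 1 µg per ml (WT-SOX9), and the other arms, all given DOX, carried TRE-myc-Sox9noHMG (ΔHMG-SOX9, lacking the DNA-binding domain), TRE-myc-Sox9noTA (ΔTA-SOX9, lacking the transactivation domain), TRE-FLAG-AFOS (AFOS, a dominant-negative FOS), TRE-myc-Sox9 with TRE-FLAG-AFOS (SOX9+AFOS) or TRE-myc-Sox9 with TRE-ARID1a (SOX9+ARID1a). The peak names in the lists of all 6 DOX arms give a DOX day of 3, as do the labels for replicate 1 of WT-SOX9, ΔHMG-SOX9 and ΔTA-SOX9. Per the methods, the SOX9 variants were delivered by lentivirus and transduced cells selected with puromycin, and AFOS and ARID1a were also delivered by lentivirus, so that an arm is a transduced culture and not a tissue, and noDOX cells of the other arms were not analysed here. The 5 skin groups, all K14rtTA; TRE-myc-Sox9, were EpdSCs sorted at postnatal day 21 before DOX (D0), at day 28 (W1), day 35 (W2) and day 63 (W6), and 12 weeks after induction from neonatal skin grafted onto Nude hosts (W12), where time and tissue source cannot be told apart. The sort kept CD49f-high, CD34-negative, Ly6A-high cells and removed cells bearing CD31, CD45, CD117 or CD140a. Each group had 2 biological replicates, which the authors pooled before calling peaks, so that each group is 1 list, no value has a spread between replicates, and read depth is unknown. The score printed for a peak is the deposited one, with a minimum of 3 in every list. All sets compared below share the same noDOX list, and the 95% Wilson intervals on shares cover counting error over regions only.

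SOX9 is the transcription factor of hair follicle stem cells and is largely silent in adult EpdSCs, which maintain the interfollicular epidermis. It binds DNA through its HMG box, can engage closed chromatin and recruits remodelling and histone-modifying cofactors through its transactivation domain. ARID1a is a DNA-binding subunit of the SWI/SNF chromatin remodeller. AP1 dimers of FOS and JUN proteins, which AFOS keeps off DNA, are major activators of keratinocyte enhancers, and NF-κB dimers activate inflammatory and survival genes. When a nucleosome-depleted enhancer closes, its DNA is no longer cut by the transposase and the ATAC-seq peak is lost.

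Checks of the lists against their labels were not clear in every respect, and none of them settles a label. A delivered coding sequence without introns can give peaks that stop at exon borders, and the list labelled AFOS held 8 such peaks in Arid1a, with scores up to 8.69, although its label names no ARID1a. The list labelled SOX9+AFOS held 7, up to 7.86, and the SOX9+ARID1a list 12, up to 38.2. The noDOX, ΔHMG-SOX9 and ΔTA-SOX9 lists, whose labels also name no ARID1a, held 1 each, at 4.81, 5.43 and 7.47, and the WT-SOX9 and skin lists 0. No list had such a peak in Fos, so this check was blind to AFOS. AP1 consensus matches were present in 19.2% of the noDOX regions closed in the list labelled AFOS and in 22.3% of those kept, against 35.7% and 14.2% in the list labelled SOX9+AFOS. Without AFOS in the label, the shares were 29.9% and 18.6% in WT-SOX9, 23.4% and 21.4% in ΔHMG-SOX9, 19.0% and 22.4% in ΔTA-SOX9 and 21.1% and 21.9% in SOX9+ARID1a. These shares thus do not separate the lists by AFOS. Among the skin lists, a peak confined to a later Sox9 exon was found at D0 (13.5), W2 (15.1), W6 (9.22) and W12 (8.84) and was missing in the list labelled W1, and in culture this check did not separate the arms (1 in noDOX at 3.71, 2 each in SOX9+AFOS and SOX9+ARID1a, none in WT-SOX9). All 8 keratinocyte markers had a peak near their start in all 12 lists, against 1 to 2 of 6 fibroblast, 1 to 4 of 6 melanocyte, 0 to 2 of 6 immune and 0 to 2 of 6 endothelial markers. Names such as AFOS, SOX9+AFOS and W1 below stand for the lists that carry those labels, and the main skin and motif shares are also given without them.

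Each sequence below is headed by the nearest protein-coding gene, which lay 115891 to 576357 bp away for Oprk1, Gata3, Rps6kc1, Cdh4 and Ripk2. The sequences are the central 200 bp of 10 members, plus strand, 5′ to 3′, from the RefSeq copy of GRCm38. The first 4 are shown for their AP1 consensus, the most frequent of the motifs sought in members, and its TGACTCA or TGAGTCA is in capitals.
Rps6kc1, chr1:190596155-190596354, plus strand: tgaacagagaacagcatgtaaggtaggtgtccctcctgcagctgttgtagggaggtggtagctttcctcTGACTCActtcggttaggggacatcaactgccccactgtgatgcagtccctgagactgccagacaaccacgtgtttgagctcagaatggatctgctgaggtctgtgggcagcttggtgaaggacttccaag
Cdh4, chr2:179067503-179067702, plus strand: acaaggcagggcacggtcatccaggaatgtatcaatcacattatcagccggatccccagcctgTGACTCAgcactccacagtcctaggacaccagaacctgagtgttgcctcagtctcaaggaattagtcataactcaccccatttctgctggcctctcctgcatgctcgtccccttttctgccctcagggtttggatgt
Il23a, chr10:128298094-128298293, plus strand: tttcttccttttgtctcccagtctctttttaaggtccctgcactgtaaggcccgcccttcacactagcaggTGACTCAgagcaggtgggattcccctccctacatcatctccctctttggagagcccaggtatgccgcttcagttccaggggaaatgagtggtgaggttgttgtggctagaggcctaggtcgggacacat
Gata3, chr2:9574221-9574420, plus strand: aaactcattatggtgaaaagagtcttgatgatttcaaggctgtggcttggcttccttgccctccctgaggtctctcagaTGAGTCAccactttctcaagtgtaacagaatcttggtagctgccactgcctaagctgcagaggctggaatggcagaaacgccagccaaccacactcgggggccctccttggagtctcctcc
The next 3 are shown for a match to the NF-κB consensus, in capitals, the motif with the highest ratio of the share in members to that over all noDOX regions.
Kcnk10, chr12:98578376-98578575, plus strand: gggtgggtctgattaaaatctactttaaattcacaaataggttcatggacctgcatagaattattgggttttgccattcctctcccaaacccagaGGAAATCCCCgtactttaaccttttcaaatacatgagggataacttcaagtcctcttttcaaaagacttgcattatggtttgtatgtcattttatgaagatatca
Il1f6, chr2:24215094-24215293, plus strand: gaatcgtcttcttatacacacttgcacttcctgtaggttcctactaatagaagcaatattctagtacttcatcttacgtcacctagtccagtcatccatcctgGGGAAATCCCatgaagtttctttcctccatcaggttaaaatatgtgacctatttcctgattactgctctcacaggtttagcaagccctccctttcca
Nrp2, chr1:62750508-62750707, plus strand: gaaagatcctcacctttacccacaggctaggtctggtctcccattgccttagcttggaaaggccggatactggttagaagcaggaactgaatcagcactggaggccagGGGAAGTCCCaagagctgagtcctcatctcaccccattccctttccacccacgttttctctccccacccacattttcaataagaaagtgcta
The Dnmt3b and Ripk2 regions were open in skin at D0 and absent from W2 on, and the capitals mark the GATA consensus AGATAA or its reverse complement TTATCT.
Dnmt3b, chr2:153657057-153657256, plus strand: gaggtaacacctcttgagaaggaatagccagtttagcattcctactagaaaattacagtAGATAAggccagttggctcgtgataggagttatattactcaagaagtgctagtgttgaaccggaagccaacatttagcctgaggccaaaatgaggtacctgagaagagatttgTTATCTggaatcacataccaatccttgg
Ripk2, chr4:16739904-16740103, plus strand: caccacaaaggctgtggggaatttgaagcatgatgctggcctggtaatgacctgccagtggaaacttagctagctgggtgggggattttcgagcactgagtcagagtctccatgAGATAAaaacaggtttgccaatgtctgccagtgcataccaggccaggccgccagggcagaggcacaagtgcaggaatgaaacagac
The Oprk1 region had the highest minimum score of all members, and the capitals mark a SOX consensus (CCATTGT, the reverse complement of ACAATGG), which few members carried.
Oprk1, chr1:5704732-5704931, plus strand: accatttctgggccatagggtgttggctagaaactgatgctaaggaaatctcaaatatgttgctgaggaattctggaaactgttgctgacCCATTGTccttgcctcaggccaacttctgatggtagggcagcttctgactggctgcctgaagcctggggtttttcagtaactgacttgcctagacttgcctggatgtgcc
A match is a description of the letters and not evidence of a bound site.

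To see how the pattern that defines these regions compares with other patterns of closing, every noDOX region was classed by the arms in which it had no peak. WT-SOX9 lacked a peak in 27.9% of noDOX regions, SOX9+AFOS in 34.9% and SOX9+ARID1a in 20.5%, against 18.5% for ΔHMG-SOX9, 19.2% for ΔTA-SOX9 and 17.3% for AFOS. All 3 SOX9-active arms lacked a peak in 5489 regions (10.5%), and 2160 of these kept it in the 3 other arms, 1054 lost it in 1 further arm, 911 in 2 and 1364 in all 3. Among the 20 ways of closing in 3 arms and keeping a peak in the other 3, this pattern held the most regions. The reverse pattern, closed in ΔHMG-SOX9, ΔTA-SOX9 and AFOS alone, came next with 891, the median was 121 and the smallest held 35. As the pattern is the rule itself, these counts are a description.

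The members were weakly accessible before SOX9. Their median noDOX score was 5.08, against 10.9 over all noDOX regions, and 1051 of them (48.7%) scored under 5. With noDOX regions divided into quartiles at scores of 5.52, 10.9 and 24.0, the lowest quartile held 1246 members, the second 773, the third 136 and the highest 5. Members made up 9.51% of the weakest quartile, 5.90% of the second, 1.04% of the third and 0.0382% of the strongest. The share of regions that met the rule was thus lower at each higher quartile, and the part of the score threshold in the closing calls was not tested. For this reason members are set below beside other noDOX regions of the same quartile.

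**Figure D1:**
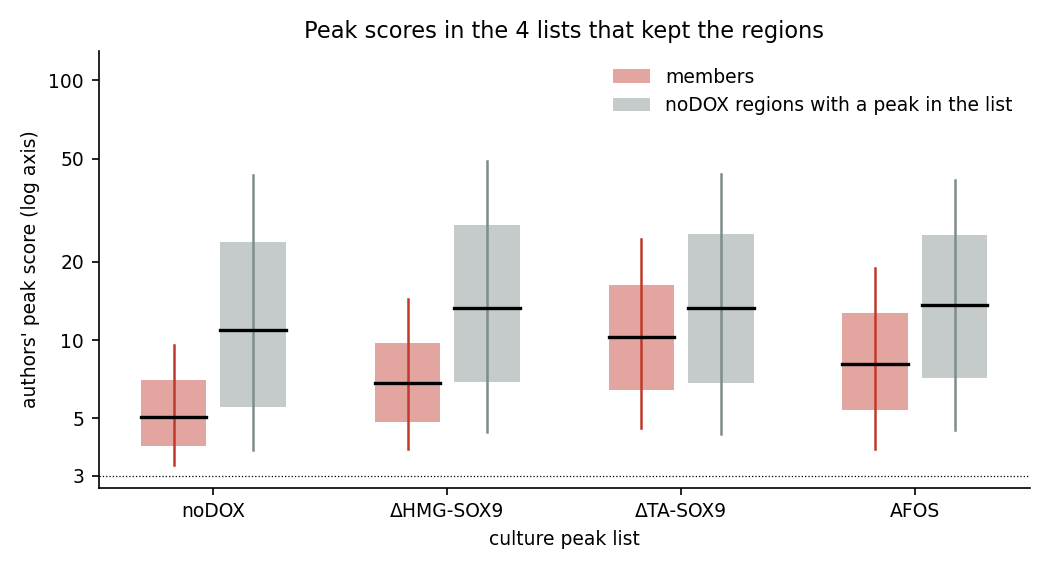
Deposited peak score (log axis) of the 2160 members (red) and of all noDOX regions with a peak in the same list (grey) in the 4 culture lists that kept the members. Boxes span the quartiles, the black line is the median, thin lines run from the 10th to the 90th percentile and the dotted line is the minimum score of 3; members are lower in every list, and closest to the other regions in ΔTA-SOX9 (median 10.3 against 13.3).

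In the arms that kept them, the median member score was above that without DOX, and the ΔTA-SOX9 list stood highest. As the rule asks for a peak in each of these lists, a region weak in noDOX could enter only with a score of at least 3 in the others, so the rise is in part set by the choice. The median was 6.83 in ΔHMG-SOX9, 10.3 in ΔTA-SOX9 and 8.08 in AFOS, against 13.3, 13.3 and 13.6 over all noDOX regions with a peak in the same list. ΔTA-SOX9 gave the highest of the 4 scores in 1152 members, AFOS in 613, ΔHMG-SOX9 in 246 and noDOX in 149. The ΔTA-SOX9 score was above the noDOX score in 1847 members (85.5%, median log2 ratio 0.94), compared with 38.7% (median log2 ratio -0.17) of the non-member regions with a peak in all 4 lists. At like noDOX score this gap was wider for ΔTA-SOX9 than for the other lists. This is a description only, as the culture lists that gave these scores also chose the members and set the other regions apart. In the lowest quartile 92.3% of members and 76.7% of the other regions were higher in ΔTA-SOX9, in the second 76.8% and 49.7%, and in the third 73.5% and 35.4%. The AFOS score was higher than noDOX in 86.9% of members and 84.7% of the others in the lowest quartile, in 60.4% and 59.1% in the second and in 48.5% and 42.4% in the third. For ΔHMG-SOX9 the shares were 83.9% and 81.4%, then 55.0% and 55.3%, then 49.3% and 43.4%. In ΔHMG-SOX9 and AFOS the rise was thus near that of other regions of like score and absent from members in the third quartile, and in the highest, with 5 members, their medians (16.1 and 17.6) were below that of noDOX (26.9).

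Strong members were few. All 4 lists gave a score of at least 5 in 740 members (34.3%), of at least 10 in 83, of at least 15 in 17 and of at least 20 in 4. The 12 with the highest minimum score are named by their nearest protein-coding gene, which does not show that they act on it. These genes were of several kinds, and the farthest, Tmem132c, lay 703549 bp away. All coordinates are GRCm38 and annotations GENCODE M21.

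The strongest was a region 115891 bp from Oprk1, which encodes an opioid receptor (chr1:5704603-5705061, intergenic). It scored 28.7 in noDOX, 32.2 in ΔHMG-SOX9, 38.9 in ΔTA-SOX9 and 32.5 in AFOS, and had no peak in any skin list. Next was a region 47729 bp from Csf2, the gene of a granulocyte and macrophage growth factor, within an intron of 4933405E24Rik (chr11:54201399-54202477). It scored 22.7 in noDOX, 23.5 in ΔHMG-SOX9, 45.9 in ΔTA-SOX9 and 50.6 in AFOS. In skin its score was 3.79 at D0 and 5.05 at W1, then 15.2, 15.1 and 17.2 at W2, W6 and W12. The Il23a region (chr10:128297462-128298926) was centred in an intron 110 bp from a start site of this interleukin subunit gene, and carries the AP1 match printed above. It scored 19.9 in noDOX, 28.5 in ΔHMG-SOX9, 57.1 in ΔTA-SOX9 and 36.0 in AFOS. Its skin scores were 9.26 at D0, 6.08 at W2, 16.5 at W6 and 25 at W12, with no W1 peak.

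Kcnk10, a leak potassium channel gene, had a member 166 bp from a start site (chr12:98577859-98579092), with scores of 20.2 in noDOX, 31.3 in ΔHMG-SOX9, 58.3 in ΔTA-SOX9 and 17.4 in AFOS. This region was open in skin at D0 (11.3), had no W1 peak, and scored 25.5, 28.5 and 25.9 from W2 to W12. The region whose nearest coding gene is Cdh4, a classical cadherin gene 374828 bp away (chr2:179067284-179067922), scored 20.3, 27.9, 30.7 and 26.4. It was present in all 5 skin lists (11.1, 5.76, 4.89, 11.0 and 17.2 from D0 to W12). The Parva region, in an intron of the gene of an integrin-linked actin adaptor (chr7:112498556-112500171), scored 17.7, 34.3, 40.0 and 17.4. The largest gap between lists was at the region near Sema6a, which encodes a semaphorin, where ΔTA-SOX9 reached 75.9 against 22.2 in noDOX, 19.9 in ΔHMG-SOX9 and 27 in AFOS. Of these 12 members 5 (those near Oprk1, Rps6kc1, Foxp1, Slc7a8 and Tmem132c) had no skin peak before W12, and the noDOX score was below the ΔTA-SOX9 score in 12 of 12.

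**Figure D2:**
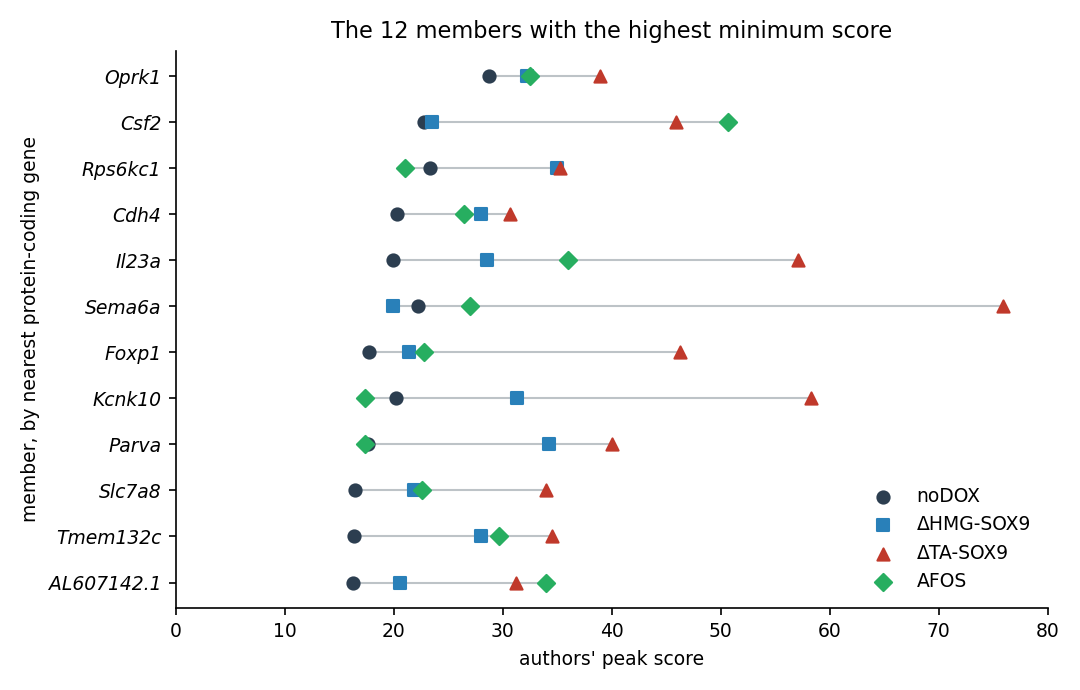
Deposited peak scores (linear axis from 0) of the 12 members with the highest minimum score, by nearest protein-coding gene, in the noDOX (circle), ΔHMG-SOX9 (square), ΔTA-SOX9 (triangle) and AFOS (diamond) lists, 1 pooled list per point and so no error bar. The ΔTA-SOX9 triangle lies right of the noDOX circle in all 12 and reaches 75.9 at Sema6a.

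The edge of the set ran along the minimum score. Just inside it were the regions near Tex44 (AFOS score 3.0), Gabrr2 (noDOX score 3.0) and Tmc6 (ΔHMG-SOX9 score 3.01). Just outside were those near Rnf165 and Fgf8, each kept out by a WT-SOX9 peak of score 3.0, and near Ckap5, kept out by a SOX9+ARID1a peak of 3.0. Regions that met the rule except for a peak in 1 SOX9-active list numbered 1089 for WT-SOX9 (median score of that peak 5.44, 286 under 4), 161 for SOX9+AFOS (4.82, 53 under 4) and 3021 for SOX9+ARID1a (6.49, 562 under 4). In all, 2097 non-member regions open in the 4 lists had every SOX9-active peak under 5, of which 1538 had a single such peak and are among the regions just counted and 559 had 2 or 3.

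To ask whether these regions were open in the epidermis and what became of them there, the members were looked up in the 5 skin lists, which the rule did not use. Most were not open in skin EpdSCs before SOX9. A D0 peak was present in 564 of 2160 members (26.1%, interval 24.3 to 28), compared with 61.1% of all noDOX regions, 82.8% of regions open in all 7 culture lists and 33.9% of those closed in all 6 DOX arms. At like culture score the share was still lower than in other noDOX regions: 21.2% against 36.5% in the lowest noDOX quartile, 31.2% against 51.9% in the second and 41.9% against 70.2% in the third. No skin list had a peak in 1021 members (47.3%, against 18.7% of all noDOX regions), and all 5 had one in 316 (14.6%, against 51.9%). Leaving out the list labelled W1, these were 47.9% (against 19.5%) and 18.5% (against 54.8%). With the list labelled AFOS left out of the rule, 2558 regions met it, 2159 of which overlapped a member, and 28.9% of them had a D0 peak. With SOX9+AFOS left out, 2322 regions met it and 27.2% had one. Without WT-SOX9 3253 regions met it, of which 33.1% had a D0 peak, 40.6% no skin peak and 22.2% a peak in all 5 skin lists.

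Members were found in skin most often in the 2 latest lists. The numbers of members with a peak were 460 (21.3%), 567 (26.2%), 837 (38.8%) and 999 (46.2%) in the W1, W2, W6 and W12 lists, and the shares over all noDOX regions were 60.2%, 65.0%, 72.8% and 74.7%. The W6 and W12 lists were the longest of the skin lists (75956 and 71503 peaks, against 57334 at D0), so all 5 were also held to their 57334 strongest peaks. In order of time the shares of members were then 26.1%, 21.2%, 22.9%, 29.3% and 36.5% (all noDOX regions 61.1%, 60%, 61.6%, 64.5% and 67.7%), so that the W6 and W12 lists still stood highest by a smaller margin. Regions absent at D0, W1 and W2 but present at W6 or W12 made up 408 members (18.9%, interval 17.3 to 20.6), against 9.91% of all noDOX regions, and 19.3% against 12.7% of other regions in the lowest noDOX quartile. Leaving out the list labelled W1, absence at D0 and W2 with presence at W6 or W12 was found in 419 members (19.4% against 11.0%). Leaving AFOS or SOX9+AFOS out of the rule gave 18.7% and 18.5% for the first of these shares, and skin lists of equal length gave 272 members (12.6% against 7.10%). With the full skin lists, absence at D0, W1 and W2 with presence at W6 or W12 was not particular to members. It was found in 22.5% (679 of 3021) of regions closed in WT-SOX9 and SOX9+AFOS but kept in SOX9+ARID1a. Regions closed in the SOX9-active arms and 1 further arm gave 16.6%, and those closed in 2 further arms 12.6%. Regions closed in all 6 DOX arms gave 11.1%. A W12 peak was found in 55.4% of the first of these sets and 41.6% of the last. The commonest skin pattern after absence from all lists and presence in all was W6 with W12 alone (189 members), followed by W12 alone (161). Of the 1596 members without a D0 peak, 553 (34.6%) had one at W6 or W12, compared with 48.3% of all noDOX regions without a D0 peak.

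Among regions open in skin at D0, a larger share of members than of noDOX regions as a whole lacked a W2 peak. Of the 564, 139 had no W2 peak (24.6%, interval 21.3 to 28.4), whereas 7.34% of the 32021 noDOX regions with a D0 peak had none. For the W1 list the shares were 25.2% against 7.40%, for the W6 list 18.3% against 5.34% and for the W12 list 7.62% against 3.50%. The members' D0 peaks were weaker than those of noDOX regions overall (median score 8.72 against 15.5, median fold over local background 8.60 against 10.3), so shares were also compared within quartiles of the D0 score. In the lowest quartile 41.6% of 245 members and 22.1% of 7760 other regions were absent at W2, in the second 18.3% of 175 and 5.35%, in the third 5.26% of 95 and 0.847%, and in the highest 0 of 49 members and 0.113% of the others. By noDOX score, absence at W2 was also more frequent in members, with 29.9% against 19.3%, 19.1% against 11.8% and 24.6% against 5.11% in the lowest 3 quartiles, and so was absence at W6 (24.2% against 14.5%, 12.9% against 8.85% and 14% against 3.55%). Absence at W12 was not, with 9.85% against 11.2% in the lowest quartile and 4.98% against 5.93% in the second, although it was 8.77% against 1.84% in the third, and by D0 score it was 13.1% against 11.1% in the lowest quartile and 5.14% against 2.27% in the second. Leaving AFOS out of the rule gave 24.1% absent at W2 and leaving out SOX9+AFOS 23.7%. Without WT-SOX9 the shares were lower, at 17.7% for W1, 17.2% for W2, 12% for W6 and 7.06% for W12. Regions closed in all 6 DOX arms, which also lacked a peak under mutant SOX9, gave 23.1% at W2 and 15.8% at W1, where members gave 25.2%. Regions closed in WT-SOX9 and SOX9+AFOS but kept in SOX9+ARID1a gave 28.6% at W2 (261 of 911) and 23.1% at W1. Those closed in the SOX9-active arms and in 1 or 2 further arms gave 24.8% and 16.7% at W2, so this absence was not particular to members. Of the 564 members, 115 (20.4%) were absent at W2 and present at W6 or W12. A lasting absence, with no peak at W2, W6 and W12, was found in 24 (4.26%, interval 2.88 to 6.25). Over all noDOX regions with a D0 peak these shares were 5.91% and 1.43%. Regions closed in all 6 DOX arms gave values near those of members, 18.4% (85 of 463) and 4.75% (22 of 463), and a higher absence at W12 (12.1% against 7.62%). The set kept in SOX9+ARID1a gave 25.2% and 3.40%. Regions closed in the SOX9-active arms and 1 further arm gave 17.7% and 7.08%, and those closed in 2 further arms 11.6% and 5.07%. At like noDOX score the lasting absence was hardly more frequent in members, with 4.92% against 4.70% of other regions in the lowest quartile and 2.90% against 2.33% in the second, while in the third it was 7.02% (4 of 57) against 0.704%. Absence at W2 with presence at W6 or W12 was seen in 25% against 14.6% in the lowest quartile, 16.2% against 9.46% in the second and 17.5% against 4.41% in the third. The W6 and W12 lists were longer than the W2 list (75956 and 71503 peaks against 64095). This share was not recomputed with skin lists of equal length, under which the members' absence at W6 was near that at W2. Reopening after W2 was thus not tested.

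**Figure D3:**
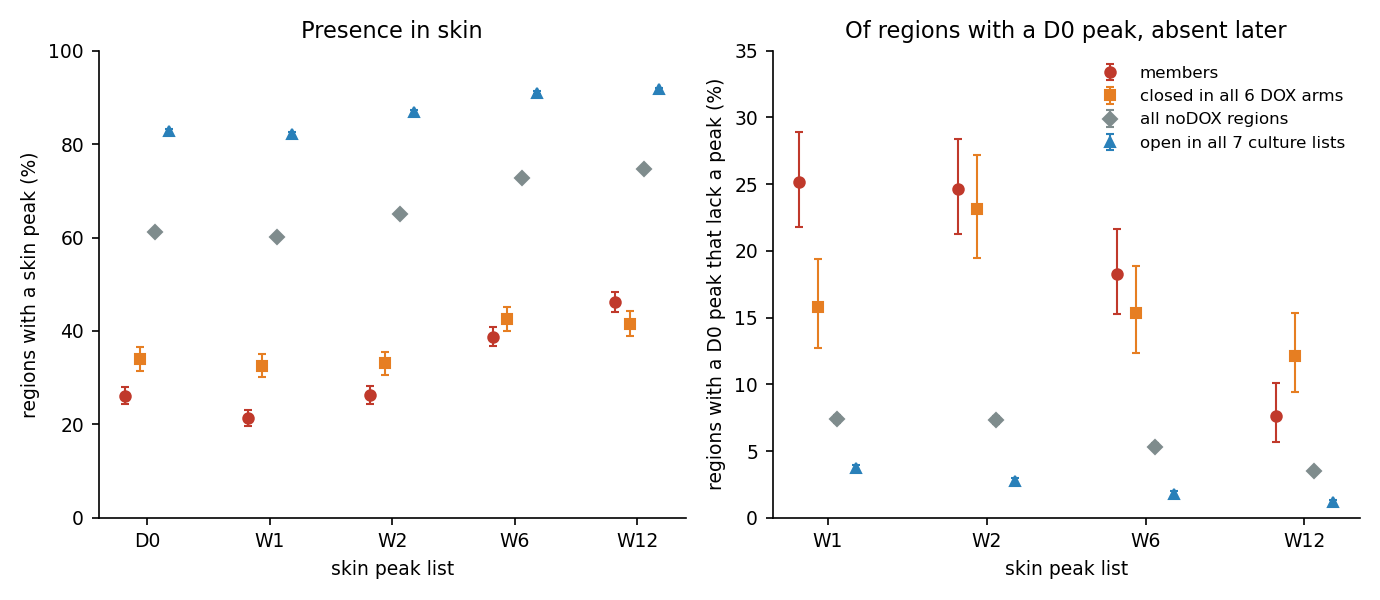
Left, share of regions (%) with a peak in each of the 5 skin lists; right, share (%) of regions with a D0 peak that lack a peak in each later list. Points are members, regions closed in all 6 DOX arms, all noDOX regions and regions open in all 7 culture lists, bars are 95% Wilson intervals (counting error only); members are the lowest set at D0 (26.1%) and reach 46.2% at W12, while 24.6% of their D0 peaks are missing at W2 against 7.34% over all noDOX regions.

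The 5 D0-open members with the highest D0 score among those absent at W2, W6 and W12 were examined singly. A region in an intron of Dnmt3b, a de novo DNA methyltransferase gene (chr2:153656851-153657462), scored 13.1 at D0 and 7.40 at W1. In culture it scored 6.25 in noDOX, 11.9 in ΔHMG-SOX9, 7.79 in ΔTA-SOX9 and 11.6 in AFOS, and it holds the 2 GATA matches printed above. The regions near Zdhhc13 and Fam234b scored 9.96 and 9.49 at D0 and were higher at W1 (16.8 and 14.3). The region near Col3a1, a fibroblast collagen gene, scored 7.89 at D0 and had no W1 peak. The region whose nearest coding gene is Ripk2, an inflammatory signalling kinase 576357 bp away (chr4:16739724-16740283), scored 6.70 at D0 and 9.38 at W1, and was strong in culture (14.2, 23.9, 23.5 and 19.4).

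Other members had no peak in the SOX9-active cultures yet high scores in every skin list. The 5 with the highest W12 score among those present in all 5 skin lists lay near Kcnc4, Birc3, Arl4a, Arrdc4 and Gata3. The Birc3 region, at the 5′ UTR of this NF-κB target and inhibitor of apoptosis (chr9:7872652-7873322), had skin scores of 65.9 at D0, then 39.2 (W1), 47.4 (W2), 51.5 (W6) and 57.1 (W12). In culture it scored 26.9 in noDOX, 22.2 in ΔHMG-SOX9, 32.5 in ΔTA-SOX9 and 9.96 in AFOS, with no peak in the 3 SOX9-active arms. The region whose nearest coding gene is Gata3, an epidermal lineage factor 304279 bp away (chr2:9574095-9574546), had skin scores of 75 at D0, then 55.9 (W1), 34.7 (W2), 39.0 (W6) and 51.9 (W12). Its culture scores were low, at 5.62, 5.43, 5.22 and 6.21. The Kcnc4 region stayed between 49.5 and 63.2 in the 5 skin lists, against 5.34 in noDOX culture.

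To ask which sequences these regions share, 12 consensus motifs were sought on both strands of the central 200 bp. The AP1 consensus, TGACTCA or TGAGTCA, was the most frequent. It was found in 774 members (35.8%, interval 33.8 to 37.9), against 21.7% of all noDOX regions and 15.9% of those open in all 7 culture lists. The share was alike at each level of noDOX score, with 35.6% of members against 22.3% of the others in the lowest quartile, 37.3% against 23.0% in the second and 30.9% against 21.4% in the third. At least 2 AP1 matches were present in 104 members (4.81%, against 2.36%). With the list labelled AFOS left out of the rule the AP1 share was 34.4%, and with SOX9+AFOS left out it was 34%. A high AP1 share was not confined to this set: it was 42.1% (interval 40.3 to 43.8) in the 3021 regions also closed in WT-SOX9 and SOX9+AFOS but kept in SOX9+ARID1a, 26.0% in regions closed in all 6 DOX arms, and 11.6% in those closed in ΔHMG-SOX9, ΔTA-SOX9 and AFOS alone. In skin, an AP1 match lay within 50 bp of the D0 summit in 146 of 564 members (25.9%), compared with 14.7% of the other noDOX regions with a D0 peak (28.4% and 12.9% in the lowest noDOX quartile).

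The GATA consensus AGATAA was present in 272 members (12.6%, interval 11.3 to 14.1), against 8.12% of all noDOX regions, and in 11.3% of regions closed in all 6 DOX arms. GATA factors, GATA3 among them, are regulators of epidermal differentiation. At like noDOX score the GATA shares were 12% of members against 9.39% of other regions in the lowest quartile, 13.5% against 9.04% in the second and 12.5% against 7.91% in the third. RUNX (TGTGGT) was found in 398 members (18.4% against 15.4%), but the difference was smaller within the lowest quartile (19.0% against 17.1%) and the second (18.4% against 16.4%) and turned in the third (13.2% against 14.7%), and in each of these the other regions lay within the members' interval. TEAD (GGAATG), with 354 members (16.4%, interval 14.9 to 18.0, against 14.9%), was no more frequent than in other regions of the lowest quartile (16.7% against 16.8%) or the second (15.5% against 15.8%), while the third gave 18.4% against 15.2%, within the members' interval. The SOX consensus, ACAATAG or ACAATGG, went the other way, with 55 members (2.55%, interval 1.96 to 3.30) against 4.0%. KLF (GGGNGTGG) was at 6.20% against 9.81%, and CTCF, the insulator protein, at 0.231% (5 members) against 1.96%. The CTCF share rests on few regions and moved with the lists used, to 0.799% without WT-SOX9, 0.732% without SOX9+AFOS, 0.429% without ΔTA-SOX9, 0.374% without ΔHMG-SOX9 and 0.135% without SOX9+ARID1a, each below the share over all noDOX regions. In the lowest quartile these motifs stood at 2.49% against 4.79% for SOX, 5.86% against 9.03% for KLF and 0.401% against 3.72% for CTCF. ETS (CCGGAAGT) was at 0.370% against 1.03% in all, and at 0.321% against 0.363% in the lowest quartile and 0.517% against 0.357% in the second, while in the third 0 of 136 members and 1.17% of the others had it. The shares over all noDOX regions of TBX (AGGTGTGA, 1.48% against 1.17%), CEBP (TTGCNNCAA, 1.57% against 1.46%), p63 (0.833% against 0.964%) and GRHL (AACCGGTT, 0.139% against 0.197%) also lay within the members' intervals, as did that of TEAD. None of the 12 motifs was found in 692 members (32.0% against 42.8%). Members with and without an AP1 match had like scores (median noDOX score 5.08 and 5.0, ΔTA-SOX9 9.84 and 10.4), and 23.9% and 27.3% of them had a D0 peak.

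**Figure D4:**
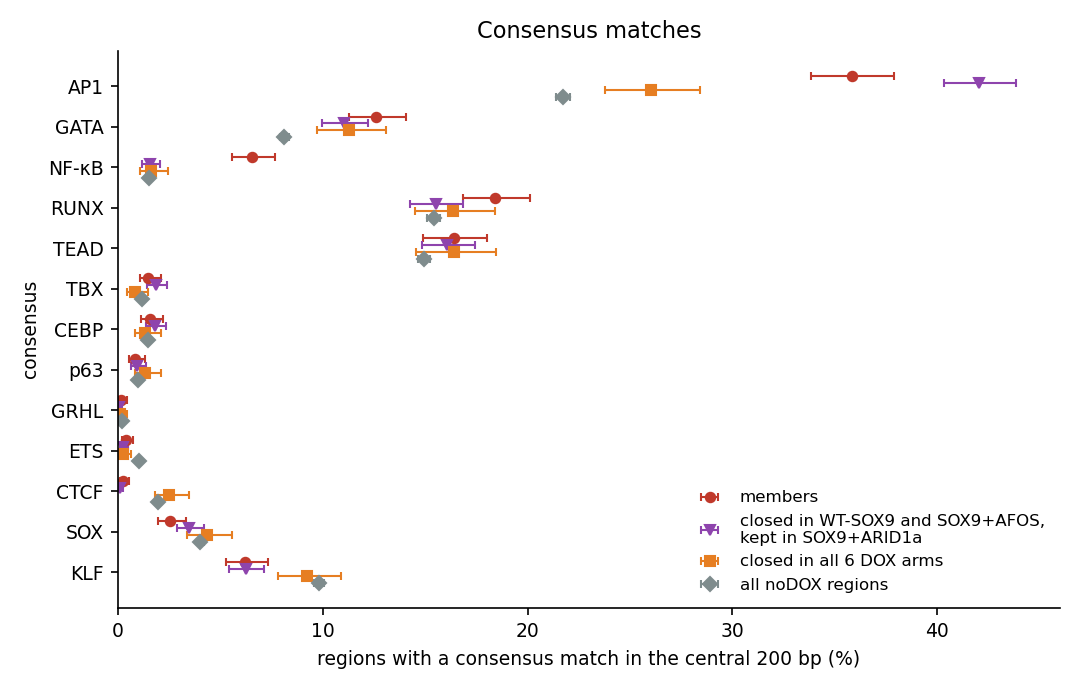
Share of regions (%) with a consensus match in the central 200 bp, for members (circles), regions closed in WT-SOX9 and SOX9+AFOS but kept in SOX9+ARID1a (triangles), regions closed in all 6 DOX arms (squares) and all noDOX regions (diamonds), with 95% Wilson intervals that cover counting error only. Members stand at 35.8% for AP1 and 6.53% for NF-κB, against 21.7% and 1.52% of all noDOX regions.

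A further consensus, that of NF-κB, was added after the genes near members had been seen. It was present in 141 members (6.53%, interval 5.56 to 7.65), against 1.52% of all noDOX regions and 1.14% of regions open in all 7 lists. The share was 1.56% in the set kept in SOX9+ARID1a, 1.61% in regions closed in all 6 DOX arms, and 4.55% and 3.73% in regions closed in the SOX9-active arms and in 1 or 2 further arms. Within the noDOX score quartiles it was 5.30% of members against 1.44% of the others, 6.73% against 1.27%, and 16.2% (22 of 136) against 1.23%. Over single arms, the largest contrast between closed and kept noDOX regions was in SOX9+ARID1a (3.18% against 1.10%), followed by WT-SOX9 (2.45% against 1.17%) and SOX9+AFOS (2.28% against 1.12%), whereas ΔTA-SOX9 gave 0.755% against 1.71%. With SOX9+ARID1a left out of the rule the share was 3.63%, with the list labelled AFOS left out 6.61% and with SOX9+AFOS left out 6.33%. Since the motif was chosen on these regions, the shares are a description.

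Members with an NF-κB match had a median ΔTA-SOX9 score of 16.6, compared with 10.1 without, while the noDOX (5.68 and 5.06), ΔHMG-SOX9 (7.19 and 6.83) and AFOS medians (8.90 and 8.02) lay closer. A D0 peak was present in 39.7% (interval 32.0 to 48.0) of those with and 25.2% of those without a match, and a W12 peak in 60.3% and 45.3%. The Nrp2 region, in an intron of this neuropilin gene (chr1:62750315-62750901), scored 13.1 in noDOX, 14.8 in ΔHMG-SOX9, 50.5 in ΔTA-SOX9 and 30.1 in AFOS. In skin it scored 3.60 at D0 and, from W2 to W12, 13.6, 30.7 and 18.7. The region near Bcl2l11, a pro-apoptotic gene, scored 11.4, 21.8, 52.4 and 31.4 in culture and was found in skin at W6 and W12 alone (5.89 and 6.64).

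**Figure D5:**
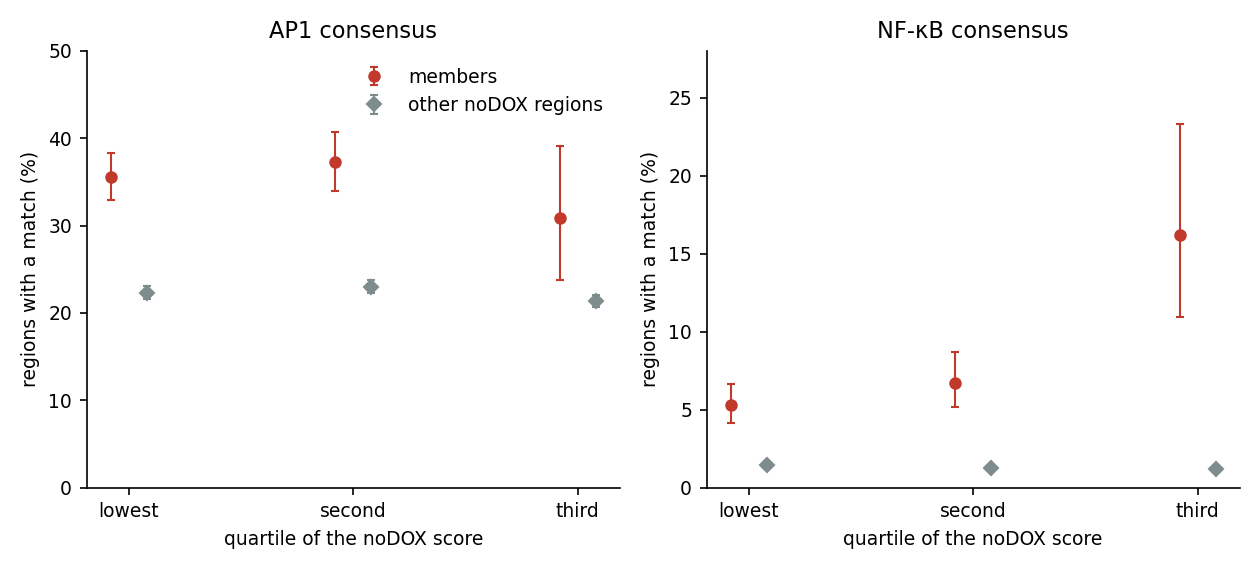
Share of regions (%) with an AP1 (left) or NF-κB consensus (right) among members (red) and other noDOX regions (grey) in the lowest 3 quartiles of noDOX score, in rising order; bars are 95% Wilson intervals for counting error, and the highest quartile, with 5 members, is left out. Members lie above the other regions in each quartile, from 30.9% to 37.3% for AP1 and from 5.30% to 16.2% for NF-κB.

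Members lay mostly away from promoters. Within 1 kb of an annotated start site there were 106 members (4.91%, interval 4.07 to 5.90), against 25% of all noDOX regions and 11.6% of those closed in all 6 DOX arms. This share rests in part on 1 list: with WT-SOX9 left out of the rule it was 11.1%, against 25% of all noDOX regions. At like noDOX score the shares were 5.22% against 10.6% of other regions in the lowest quartile, 3.88% against 15.3% in the second and 7.35% against 27.9% in the third. Over 50 kb from any start site lay 400 members (18.5% against 9.78%, or 43.9% against 26.6% with protein-coding start sites alone), and the median distance was 16029.5 bp against 8285 bp. By the position of their centres, 1107 members were intronic (51.2% against 48.8%, and 52.2% against 52.6% of other regions in the lowest quartile), 973 intergenic (45.0% against 36.1%, and 43.8% against 39.3% there), 25 in coding exons, 27 in noncoding exons, 19 in 3′ UTRs and 9 in 5′ UTRs. They were less rich in GC than noDOX regions as a whole (median 47.0% against 50.5%, and 47.0% against 48.5% in the lowest noDOX quartile). Merged regions had a median width of 590 bp against 716 bp, but members were wider than other regions in the lowest quartile (564.5 bp against 475 bp), alike in the second (619 bp against 614 bp) and narrower in the third (662.5 bp against 799 bp).

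There were 57 members within 1 kb of a protein-coding start site, at genes of many kinds. The highest ΔTA-SOX9 score among them was at Scin, the gene of an actin-severing protein (chr12:40133210-40134311, 61.6 against 12 in noDOX). The genes described next were picked from the 57 after their values had been seen, so that they show no theme of the set. They were Il23a, Birc3, Tnfaip3, a ubiquitin-editing inhibitor of NF-κB, Tnip1 and Tnip3, its binding partners, Traf1, an adaptor of tumour necrosis factor receptors, Ikbke, an IκB kinase, Icam1, a leukocyte adhesion molecule, Il1f6, an epidermal interleukin, and the matrix metalloproteinases Mmp9 and Mmp1b. The Tnip3 region (chr6:65590027-65590722) scored 13.6 in noDOX, 9.54 in ΔHMG-SOX9, 42.7 in ΔTA-SOX9 and 15.3 in AFOS. The Il1f6 region (chr2:24214685-24215702) scored 12.5, 6.12, 32.2 and 38.4, had no peak at D0 or W1, and scored 3.97, 6.07 and 4.85 from W2 to W12. The Mmp9 region (chr2:164947324-164948429) scored 4.26, 6.78, 25.9 and 5.20, and Mmp1b (chr9:7387606-7388652) 3.07, 4.13, 27.6 and 15.4. Both were thus weak without DOX and strongest in ΔTA-SOX9, and in skin they were absent up to W2.

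Tnfaip3 (chr10:19011778-19012235) scored 3.28, 4.10, 6.87 and 5.68 in culture, and in skin 8.60 at D0 and 11.1 at W12 with no W1 peak. Icam1 (chr9:21016478-21017015) scored 8.16, 10.1, 13.8 and 3.28 and was open in all 5 skin lists (9.70 to 18.3). Ikbke (chr1:131276717-131277301) and Traf1 (chr2:34957975-34958835) had ΔTA-SOX9 scores of 16.9 and 13.5 against noDOX scores of 3.22 and 3.94, and neither had a skin peak. An NF-κB match lay in 8 of the 57 (14%, interval 7.29 to 25.3), compared with 1.16% of all noDOX regions within 1 kb of a coding start. These 8 were near Kcnk10, Birc3, Scin, Tnip3, Il1f6, Ephx2, Cryaa and Tnip1. As the motif was added after genes near members had been seen, this share is a description, and it was not matched for noDOX score. Also among the 57 were Sprr1b, a cornified envelope gene (6.30, 4.70, 7.07 and 4.89), and Crabp2, a retinoic acid-binding protein gene (3.31, 11.2, 4.45 and 6.89).

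Members were spread over many genes. A protein-coding start lay within 100 kb of 1567 members, at 1389 genes, of which 1239 had 1 member, 129 had 2 and 21 had 3 or more. The 7 genes with 4 members each were Ndst3, a heparan sulfate-modifying enzyme gene, Gm826, Chn2, a GTPase-activating protein gene, Ltbp1, which encodes a binder of latent TGF-β, Parva, Pde4d, a cAMP phosphodiesterase gene, and Foxp1. At Ndst3 these were 4 of 6 noDOX regions, at Gm826 4 of 9, at Ltbp1 4 of 15 and at Foxp1 4 of 59. The 4 Ndst3 members scored 3.31 to 6.18 in noDOX and 4.27 to 36.7 in ΔTA-SOX9, and none was open in skin before W6. By contrast all 4 Gm826 members, which lay within 18915 bp, had a D0 peak (4.58 to 34). The Ltbp1 members had no peak in any skin list. Lef1, a mediator of WNT signalling, had members at 3 of its 3 noDOX regions as counted by nearest gene, with noDOX scores of 4.66, 3.18 and 11.1 and ΔTA-SOX9 scores of 15.4, 11.3 and 14.8, and 1 of them was open at D0 (5.01).

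Lists of genes for epidermal fate and signalling were then read against the 4.12% of noDOX regions that were members. Of noDOX regions nearest to 26 epidermal transcription factor genes, 3 of 234 were members (1.28%, interval 0.437 to 3.70), near Cebpb, Grhl2 and Msx2. None of these had a D0 peak. The Cebpb region scored 6.06 in noDOX, 12.5 in ΔHMG-SOX9, 17.8 in ΔTA-SOX9 and 24.8 in AFOS, while Grhl2 and Msx2 stayed at or under 6.10 in all 4. Basal layer and adhesion genes had 8 of 163 (4.91%), among them regions near Cd44, Cd9, Col17a1, Itgb1 and Lama3. The region near Itgb1, a major integrin subunit of basal cells, scored 4.51, 5.07, 24.6 and 22.4. Col17a1, a hemidesmosome collagen gene, had an intronic member open in all 5 skin lists (9.69 at D0, 11.0 at W12). Suprabasal and barrier genes had 7 of 163 (4.29%), near Abca12, Alox12b, Perp, Sfn and Tgm3, and 1 Tgm3 region, near this cross-linking enzyme of the cornified layer, scored 18.8 at D0, 35.9 at W1 and then 14, 5.70 and 9.95.

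Signalling lists gave similar or lower shares. NOTCH pathway genes had 5 of 128 (3.91%), near Dll1 (a ligand), Notch1 (a receptor), Maml2 and Maml3 (coactivators) and Numb (an inhibitor). The Notch1 region, intronic and 6792 bp from a start site, scored 9.38 in noDOX, 21.9 in ΔHMG-SOX9, 9.70 in ΔTA-SOX9 and 8.87 in AFOS, and was found in skin at W2 (6.24) and W6 (3.85) alone. The EGF receptor pathway had 2 of 106 (1.89%), near the ligand genes Tgfa and Nrg1. The Tgfa region scored 6.19, 17.2, 7.50 and 37.5. The TGF-β and BMP pathway had 5 of 160 (3.13%), near the ligands Tgfb2 and Bmp2, the receptor Bmpr1b, the effector Smad2 and the repressor Skil, and none of the 5 had a D0 peak. AP1 subunit genes had 2 of 72 (2.78%), at Fosl1 and Fosl2, and genes of enhancer cofactors 1 of 48 (2.08%), near Ep300, a histone acetyltransferase gene, which scored 9.18, 15.3, 23.4 and 9.69.

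Hair follicle genes, the programme to which SOX9 belongs, had 10 of 201 (4.98%, interval 2.72 to 8.91). These lay near Lef1 (3 regions), Tcf7l2 (2), Foxi3, Lrig1, Nfatc1, Ptch1 and Wnt7b. The Foxi3 region, near a placode forkhead factor, scored 3.07 in noDOX, 19.1 in ΔHMG-SOX9, 40.3 in ΔTA-SOX9 and 10.8 in AFOS. It had no skin peak at D0 or W1 and then scored 7.38, 21.1 and 27.8. The Ptch1 region, in an intron of the hedgehog receptor gene, was open in all 5 skin lists and scored 21.1 at D0 and 14 at W12. The interval of each of the 9 lists held the overall share of 4.12%, with the exception of epidermal transcription factors (1.28%, upper bound 3.70).

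Members lay next to one another more often than other noDOX regions lay next to a member. Taking noDOX regions in order, 393 members (18.2%, interval 16.6 to 19.9) were next to another member, against 7.47% of the other regions, and at like noDOX score the shares were 16.0% against 8.49%, 20.2% against 7.45% and 27.2% against 7.44% in the lowest 3 quartiles. The members that adjoined formed 145 pairs, 20 runs of 3, 7 of 4 and 3 of 5. The runs of 5 lay at Mpped2 (238367 bp, 4 of 5 open at D0), at Peli2 (326335 bp, 4 of 5) and between Ndufa4 and Nxph1 (705186 bp, 0 of 5). Regions of 1 run share their surroundings and are not independent. By chromosome the members' share ran from 1.87% of noDOX regions on chromosome 5 to 5.95% on chromosome 13. Of 2352 regions opened in the 3 SOX9-active arms alone, at least 1 lay within 50 kb of 233 members (10.8%, interval 9.55 to 12.2), compared with 17.0% of the other noDOX regions and 11.8% of those closed in all 6 DOX arms.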

How the data were processed

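Per the study's methods and the submitters' processing notes, reads were aligned to GRCm38 (mm10) with Bowtie2 2.2.9 in the PEPATAC pipeline and handled with Picard 2.3.0 and SAMtools 1.9, both replicates of a group were merged, and peaks were called with MACS2 2.1.1. deepTools 2.5.4 is also listed. The authors deposited 1 peak list per group with a normalized peak score, of which the lowest was 3. The methods state that peak calling was normalized for read number and depth, with a threshold of 3. They do not say that equal scores in 2 lists mean equal accessibility, which was assumed here. The skin files deposited by the authors also give fold enrichment over local background and the −log10 q-value of each peak, and peak names mention fragments as input in 3 culture lists (SOX9+ARID1a, SOX9+AFOS, AFOS) and not in the others. Members lacked a peak in SOX9+ARID1a and SOX9+AFOS and kept one in AFOS, and the part of this difference in the closing calls was not tested.

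From these lists, peaks were merged with Python 3.11.15 (numpy 2.4.6), presence was called by at least 1 bp of overlap, the best score per list was kept, and sequence was read with pysam 0.24.0. Functions were tested on simulated data. Annotation was GENCODE M21 on GRCm38, with exon borders allowed 100 bp of tolerance. Figures were drawn with matplotlib 3.10.9. Members, gene lists, motifs and alternatives were chosen with earlier results of these data known. The NF-κB consensus, the D0 score quartiles, the exon tolerance and the promoter genes named were chosen after values had been seen. Named otherwise were the 12 members with the highest minimum score, the 10 genes with most members within 100 kb (of which a selection is described), members near listed genes, 5 members lost and 5 kept in skin, and 3 on each side of the score minimum. No test across regions was made, as regions are not replicates. Some named genes and sequences are not reported here.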

Additional observations from a re-analysis of the deposited data

How the results depend on the processing

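Under all the alternatives in which they could be computed, the shares of members with a D0 peak, an AP1 match, a GATA match or a start site within 1 kb, and of D0-open members without a W2 peak, stayed on the same side of the share over all noDOX regions, whereas CEBP did so in 9 of 14 and TBX, TEAD and p63 in 12 of 14. The number of members was 740 with a score of at least 5 in the 4 open lists, 3253 without the WT-SOX9 list and 5181 without the SOX9+ARID1a list. With all culture lists held to a score of at least 5 before merging there were 1654 members, 740 of them shared. The share with a D0 peak was 32.0% and 28.8% under those score settings (all lists and 4 lists), 28.5% with noDOX peaks covered by 50%, 33.1% without WT-SOX9, 28.9% without AFOS, 28.5% without SOX9+ARID1a and 20.4% with skin scores of at least 5. The share absent at W2 was 19.7% with all culture scores of at least 5, 17.2% without WT-SOX9, 29.9% with skin scores of at least 5, 29.6% with skin lists of equal length and 53.4% (all noDOX regions 25.8%) with a common −log10 q minimum of 14.5, under which the cause was not tested. The share absent at W6 was 29.3% (all noDOX regions 10.9%) and that at W12 15.1% (7.50%) with skin lists of equal length, 39.0% (17.4%) and 13.5% (6.89%) with the common q minimum, and absence at W12 was 4.99% (3.14%) with culture lists of equal length. With the q minimum 13.5%, 22.9% and 37.8% of members had a W2, W6 and W12 peak. AP1 was at 39.4% and 41.6% with noDOX peaks as units (50% covered and 1 bp shared), 32.5% without WT-SOX9, 38.3% without ΔTA-SOX9, 39.6% without SOX9+ARID1a, 41.7% around the noDOX peak centre and 61.1% in whole regions (all noDOX regions 41.7%), where GATA was at 33.8% (28.2%). The share near a start site was 4.05% with 4 scores of at least 5, 11.1% without WT-SOX9, 6.14% without AFOS and 2.64% for coding starts alone (21.8%). No paired analysis was possible because the replicates of each group were pooled before peak calling, so that leaving out a replicate could not be run either. A missing peak means a score under 3 or none, read depth is unknown, and each list is a single pooled measurement.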
